A study of Mus musculus with 4 samples.

Results

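miR-31 is a single microRNA, and its measurements are the 5 spots of the probe named mmu-miR-31 on each of 4 one-colour arrays, 1 probe of the 700 mouse microRNA probes that every array carried. The probe was chosen by its name and not by its level. The arrays came from an experiment on 4T1, a metastatic line of mouse mammary carcinoma cells, of which 50000 were injected orthotopically into each of 20 female Balb/s mice. When the primary tumour measured 1 cm3 it received sham radiation, or a dose of 10 Gy in 10 of the mice. The primary tumour was then removed by mastectomy and the metastases were left to grow to the end point. There was 1 array for each of 4 groups: the primary tumour after sham treatment, the metastases of sham-treated mice, the primary tumour after 10 Gy, and the metastases of mice whose primary tumour had received 10 Gy. The last group was thus not irradiated at the metastases themselves. The labels name neither the organ of the metastases nor the number of mice behind each RNA sample. With 1 array per group, no difference between groups has a replicate check, the number of arrays limits the precision, and each error below is the scatter of 5 spots on a chip. In such bulk RNA, a larger share of cells that make a microRNA and more of it per cell cannot be told apart.

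A microRNA acts by pairing its seed, bases 2 to 8, with sites in messenger RNAs, which lowers their translation or stability. miR-31 is best known in breast cancer as a suppressor of metastasis: in human breast cancer cell lines it represses genes of cell movement and adhesion, among them RHOA, the integrin subunit gene ITGA5 and the radixin gene RDX. In other tissues it has other roles, and in colorectal tumours and proliferating keratinocytes its level is often raised.

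The sequences below show what the 2 probes of this hairpin measure. The array's targets were identical to the RefSeq entries mmu-miR-31-5p and mmu-miR-31-3p (assembly GRCm38.p6). Capitals mark the seed in the mature strands and both mature arms in the hairpin.
miR-31: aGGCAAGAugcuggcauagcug
miR-31*: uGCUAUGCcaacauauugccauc
Mir31 hairpin: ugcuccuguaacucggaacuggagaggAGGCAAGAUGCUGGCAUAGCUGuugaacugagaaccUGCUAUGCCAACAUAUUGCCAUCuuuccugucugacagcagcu
The hairpin of 106 bases lies on the minus strand at chr4:88910557-88910662, with miR-31 at chr4:88910614-88910635 and its passenger strand miR-31* at chr4:88910577-88910599. In the RefSeq gene table Mir31 lies within the span of the long noncoding RNA gene Gm49890, between the protein-coding genes Ifne, an interferon gene, and Mtap, which encodes methylthioadenosine phosphorylase. No other target on the array (0 of 699) had the miR-31 seed. The most similar target, that of miR-485, differed from it at 5 of 17 aligned bases, and no other target shared a run of more than 9 bases with it. The miR-31 target has a GC content of 54.5%, and the median of the 700 targets was 47.7%.

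miR-31 was bright on every array and brightest in the irradiated primary tumour. Its scanner intensity, before any background was taken off, was 5409 ± 122 units (SD, n = 5 spots) in the sham-treated primary tumour. It was 6703 ± 256 units in the metastases of sham-treated mice. In the irradiated primary tumour it was 9860 ± 323 units, with spots from 9353 to 10162. In the metastases of irradiated mice it was 4750 ± 529 units, with spots from 4160 to 5285. The spots of the irradiated primary tumour lay above all spots of the other 3 arrays. All 5 spots exceeded the 95th percentile of the empty spots on each array, and the mean was 31.5, 37.8, 23.7 and 18.8 times the median of the empty spots, in the order sham primary, sham metastases, irradiated primary and metastases of irradiated mice.

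The spread between spots was widest on the array of the metastases of irradiated mice, with a coefficient of variation of 11.1% against 2.26% to 3.82% on the other 3 arrays. The lowest spots there lay in chip rows 71 and 99, at 4216 and 4160 units. The miR-31* spots directly beside them, in rows 72 and 100, were also the lowest of their set, at 299.2 and 294.0 units. The background at the miR-31 spots of the irradiated primary array, taken as the median of the 10 nearest empty spots, ranged from 381.2 to 436.9 units, far below the miR-31 signal.

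**Figure D1:**
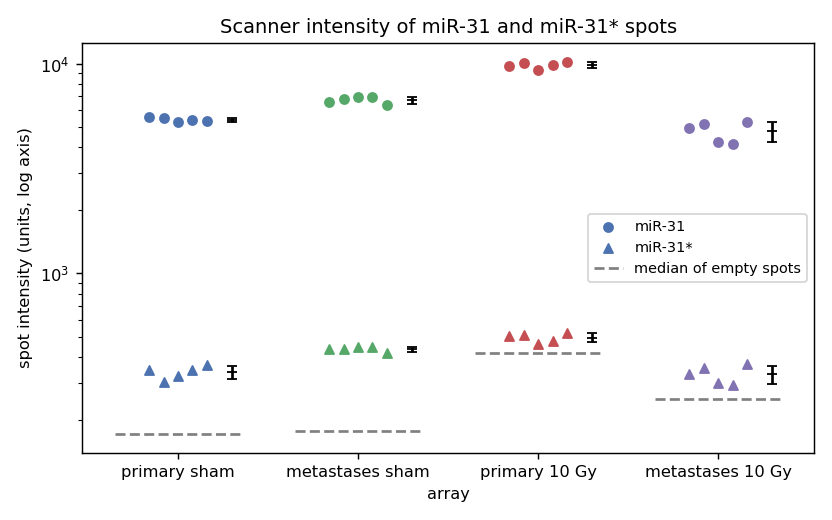
Scanner intensity of each miR-31 spot (circles) and miR-31* spot (triangles) on the 4 arrays, on a log axis in intensity units, with the mean and SD over 5 spots beside them and the median of the empty spots as a dashed line. The miR-31 spots of the irradiated primary tumour, from 9353 to 10162 units, lie above those of the other 3 arrays, and the miR-31* spots lie close to the empty spots on the irradiated arrays.

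The rank of miR-31 within an array does not change when the array is scaled as a whole. It was the 53rd brightest of 700 microRNA probes in the sham primary tumour, the 52nd in the sham metastases and the 49th in the metastases of irradiated mice. In the irradiated primary tumour it was the 22nd. Under the other settings it ranked between 20 and 22 in the irradiated primary tumour and between 47 and 53 on the other 3 arrays. Its share of the summed microRNA signal above the empty spots was 0.472%, 0.578%, 1.68% and 0.666% in the order sham primary, sham metastases, irradiated primary and metastases of irradiated mice. The irradiated primary array had the fewest detected probes, 186 against 337 to 459 on the other 3, and the highest empty spots, with a median of 416.9 units against 171.5 to 252.4. Their part in the higher rank and share was not tested. Probes for 5S ribosomal RNA had a median of 20674 units on that array, the lowest of the 4, and 26298 units in the sham primary tumour.

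**Figure D2:**
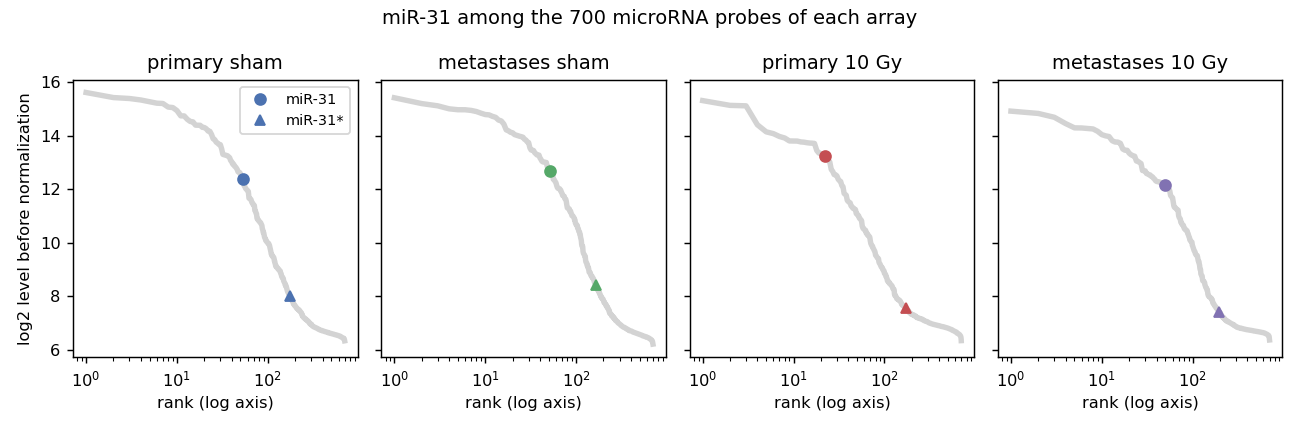
All 700 microRNA probes of each array in order of brightness (grey), with the rank on a log axis and the log2 level before normalization between arrays on the vertical axis. miR-31 sits at rank 22 in the irradiated primary tumour and at ranks 49 to 53 on the other 3 arrays, and miR-31* lies where the curve approaches background.

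After normexp background correction and quantile normalization, the log2 level of miR-31 was 11.99 in the sham primary tumour, 12.03 in the sham metastases, 12.17 in the metastases of irradiated mice and 13.67 in the irradiated primary tumour. The SD over spots was 0.033, 0.057, 0.17 and 0.049 in that order. The 3 lower levels were close together after normalization. Neighbours in this order differed by 0.043 ± 0.064 and 0.14 ± 0.22 (SD over 5 spot pairs), less than the scatter of the spots. The step to the irradiated primary tumour exceeded that scatter. The SD was taken before quantile normalization, where the differences of these neighbours were 0.31 and -0.53. In scanner intensity the spots of neighbouring arrays did not overlap. On each array the probes next to miR-31 in brightness were within 0.060 of it. They were miR-874 and miR-25 in the sham primary tumour, miR-290-5p and miR-146b in the sham metastases, let-7d and miR-690 in the irradiated primary tumour, and miR-143 and miR-25 in the metastases of irradiated mice.

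The first comparison sets the primary tumour after 10 Gy against the sham-treated one. miR-31 was higher after 10 Gy by 1.68 ± 0.05 on the log2 scale (3.20-fold, n = 5 spot pairs), and all 5 irradiated spots lay above all 5 sham spots. Before normalization the difference was 0.84, or 1.79-fold, which is under 2-fold. Of the 184 probes detected on both arrays, as miR-31 was, 26.6% were at least 2-fold higher, and miR-31 had the 13th highest difference. Of the 339 probes that 1 or both of these arrays detected, 15.0% were at least 2-fold higher. In either direction 30.4% of the 339 differed by 2-fold, so a 2-fold difference was common between these arrays. The split was 51 higher and 52 lower, but 7 and 95 without normalization, 124 and 33 with scaling to the median, 28 and 62 with cyclic loess, and 190 and 25 when the 75th percentiles were set equal. The difference of miR-31 was the 14th highest of the 339, and between the 7th and the 32nd highest under the other settings. Taken relative to the median probe, it was 1.74, and from 1.13 to 1.83 under the other settings. These ranges, and those relative to the median probe below, take in all settings but the authors' value table and the normalization of 2 arrays alone. There is no test with 1 array on each side.

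The second comparison is between metastases of the 10 Gy arm and metastases of the sham arm. miR-31 differed by 0.14 ± 0.22, which is within the scatter of the spots. Before normalization the difference was -0.53, and all 5 spots of the irradiated arm lay below those of the sham arm, so the direction depended on the scaling. Relative to the median probe it was 0.16, and from -0.33 to 0.28 under the other settings. At least a 2-fold difference was seen for 4.78% of 481 detected probes, with 11 higher and 12 lower (7 and 71 without normalization, 44 and 10 with scaling to the 75th percentile, 30 and 10 with scaling to the median).

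The difference between both radiation differences, metastases minus primary tumour, was -1.54 ± 0.20 for miR-31 (n = 5 spot sets). Before normalization it was -1.37. Of 374 probes detected on at least 2 arrays, 11.8% had a value of -1 or lower and 23.8% a value of at least 1 in either direction. miR-31 was the 15th lowest of the 374.

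**Figure D3:**
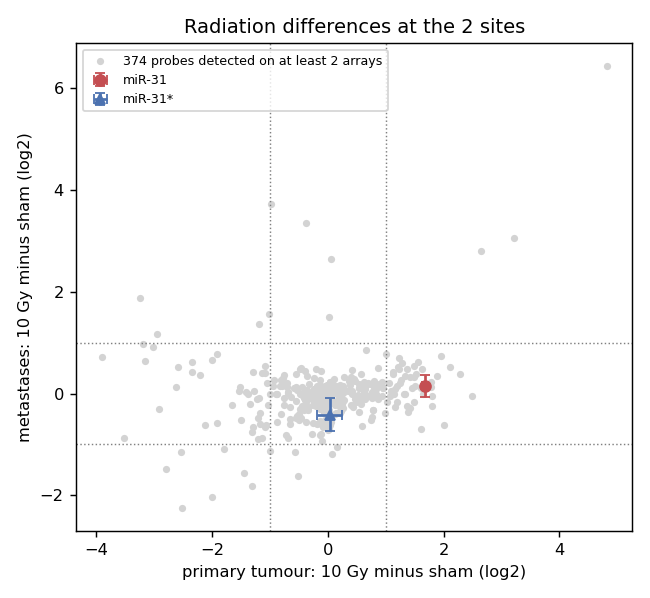
Log2 difference between 10 Gy and sham in the primary tumour (horizontal) and in metastases (vertical) for the 374 probes detected on at least 2 arrays (grey), with error bars of 1 SD over 5 spot pairs for miR-31 and miR-31*. Dotted lines mark 2-fold. miR-31 lies at 1.68 and 0.14, and miR-31* at 0.036 and -0.42.

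The third comparison sets metastases against the primary tumour. In the sham arm, miR-31 differed by 0.043 ± 0.064 between the sham metastases and the sham primary tumour. The difference took either sign under other scalings, from -0.36 to 0.31. Before normalization it was 0.31, and all 5 sham metastases spots lay above all 5 sham primary spots. Of 473 detected probes, 22.6% differed by at least 2-fold, with 57 higher and 50 lower (40 and 103 with scaling to the median, 53 and 74 with cyclic loess, 88 and 52 without normalization). In the irradiated arm, miR-31 was lower in metastases by a difference of -1.49 ± 0.14 (2.81-fold), and all 5 metastases spots lay below all 5 primary spots. Before normalization the difference was -1.06 (2.09-fold). Of 344 detected probes, 11.0% were at least 2-fold lower and 23.8% differed in either direction, and miR-31 was the 18th lowest. The split of 44 higher and 38 lower became 52 and 15 without normalization, 30 and 144 with scaling to the 75th percentile, and 28 and 159 with scaling to the median. This comparison shares the irradiated primary array with the first one, so both large differences of miR-31 rest on the same 5 spots.

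**Figure D4:**
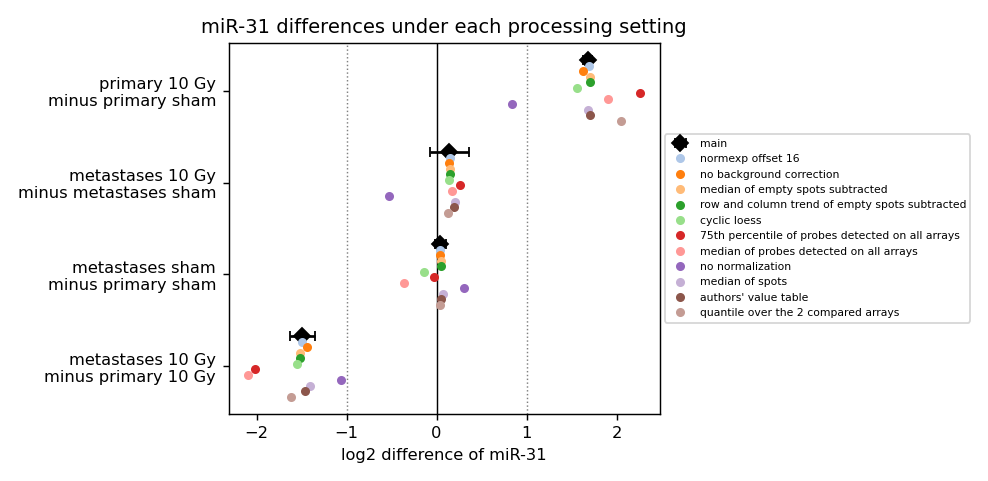
The 4 log2 differences of miR-31 under each processing setting, with the reported value as a black diamond and its SD over 5 spot pairs. Dotted lines mark 2-fold. The irradiated primary tumour exceeds the sham primary tumour by 0.84 to 2.26 and the metastases of irradiated mice by 1.06 to 2.09, and the other 2 comparisons lie on both sides of 0.

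A limma fit with site and radiation as additive terms over the 374 probes leaves 1 residual degree of freedom. It measures a term only against how far both arms, or both sites, disagree, in that probe and over all probes. For miR-31 the site term was -0.72 (SE 0.52, adjusted p = 0.490) and the radiation term 0.91 (SE 0.52, adjusted p = 0.763), both after Benjamini-Hochberg adjustment. Neither passed 0.05. No probe (0.0%) passed for either term, while 83 and 22 probes had an unadjusted p under 0.05. With scaling to the median, 19 probes passed with a positive and 53 with a negative site term, and 5 and 3 for radiation. The same counts were 17 and 25 for site and 5 and 2 for radiation when arrays were scaled to the 75th percentile. miR-31 was in none of these counts. In both of these scalings the prior degrees of freedom of the fit were infinite, so all probes were tested against 1 shared variance. With quantile normalization of the normexp values they were 1.52.

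The passenger strand miR-31* comes from the same hairpin, and its normalized level was not highest in the irradiated primary tumour but in the sham metastases, at 8.005 against 7.59 to 7.88 on the other 3 arrays. Its scanner intensity was 337.1 ± 24.0 units in the sham primary tumour, 435.5 ± 12.1 in the sham metastases, 493.4 ± 24.3 in the irradiated primary tumour and 329.9 ± 32.8 in the metastases of irradiated mice (SD, n = 5 spots). These values include a background that was highest on the irradiated primary array, where 4 of 5 spots exceeded the 95th percentile of the empty spots. Above the median of the empty spots, miR-31* stood at 165.7, 258.4, 76.6 and 77.4 units in the same order. On the normalized scale it differed by 0.036 ± 0.22 between the irradiated and the sham primary tumour, where miR-31 differed by 1.68. The ratio of miR-31 to miR-31* above the empty spots was 31.6, 25.3, 123.3 and 58.1 in the same order. A strand near background has a weakly determined level, and probes of different sequence need not respond alike, so the ratios compare arrays and give no amounts of each strand.

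After quantile normalization, miR-31 was at least 2-fold higher in the irradiated primary tumour than on each of the other 3 arrays, which was so for 16 of the 180 probes detected on all 4 arrays. Its smallest gap was 1.49, to the metastases of irradiated mice. Without normalization the smallest gap was 0.53 (1.45-fold), to the sham metastases, and 1 of the 180 probes had a gap of 2-fold. miR-31 was then 1 of 16 probes with any gap above 0, and its gap was the 4th largest. The pattern of miR-31 was compared with those of the other 179 probes by the root mean square distance between log2 levels over 4 arrays, each less the probe's own mean. The smallest distances were those of miR-320 (0.062), miR-99b (0.14), miR-379 (0.17), miR-222 (0.17), miR-127 (0.18) and miR-212 (0.19), and the median over the 179 was 0.80. miR-320 had log2 levels of 11.70 in the sham primary tumour, 11.65 in the sham metastases, 13.20 in the irradiated primary tumour and 11.80 in the metastases of irradiated mice. Its 10 Gy difference was 1.50 in the primary tumour and 0.16 in metastases. Outside the irradiated primary tumour, miR-379 lay at 7.31 to 7.66, miR-127 at 7.23 to 7.85 and miR-212 at 7.42 to 7.704. These levels are near those of miR-31*, a strand near background, so these patterns are weakly determined. On the same arrays miR-99b lay at 11.34 and miR-222 at 11.08 to 11.39, far above miR-31*. The targets of the 6 nearest probes shared at most 5 bases in a row with that of miR-31. Their GC contents were 54.5%, 63.6%, 47.6%, 52.4%, 59.1% and 54.5% in the order of distance, and the part of GC content was not tested. All of these patterns share the same 4 arrays, so they are a description over 4 points.

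**Figure D5:**
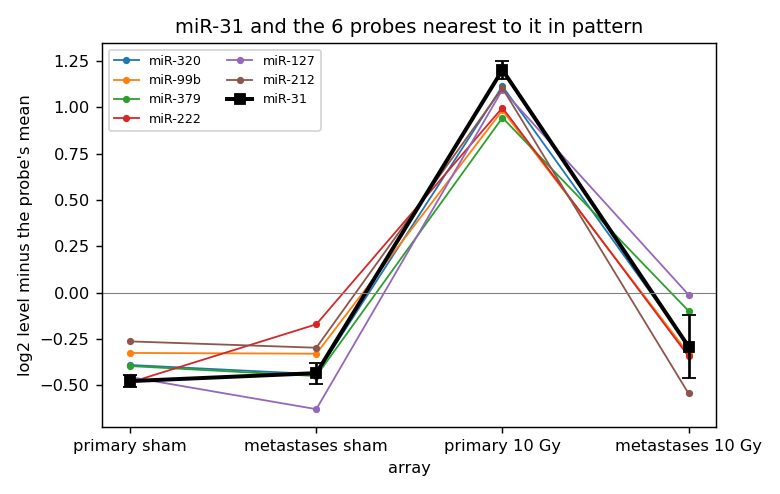
Log2 level of miR-31 (black, error bars 1 SD over 5 spots) and of the 6 probes nearest to it in pattern on the 4 arrays, each less its own mean over the arrays. All 7 are highest in the irradiated primary tumour, where miR-31 stands 1.20 above its mean.

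miR-31 was set beside 20 other microRNAs described as suppressors of metastasis. In the sham arm, 14 of them were detected on both arrays. Of these 14, 10 were at least 2-fold higher in metastases than in the primary tumour and 1, the muscle microRNA miR-206, was at least 2-fold lower. Their median difference was 1.64, beside -0.014 for all probes detected on both, of which 15.8% were 2-fold higher. The largest were those of miR-200c, an epithelial microRNA (4.02), miR-145 of smooth muscle and fibroblasts (3.60) and miR-30a (3.21), while miR-31 stood at 0.043. Under the other settings 8 to 11 of the 14 were at least 2-fold higher. The 10 metastasis-promoting microRNAs were all detected on both arrays, and 0 were at least 2-fold higher in metastases (3 without normalization). Both lists were chosen with earlier results of these data known, so their counts are descriptions. Some suppressors, such as miR-126-3p, miR-145 and miR-200c, are also in the cell type lists below. In the irradiated against the sham primary tumour, 8 were detected on both arrays and 1, miR-145 at 1.78, was at least 2-fold higher, beside 26.6% of all probes detected on both. Of the 10 metastasis-promoting microRNAs, 9 were detected on both primary tumour arrays and 3 were at least 2-fold higher: miR-222 (1.48), miR-103 (1.46) and miR-107 (1.25). Over the other settings the count of higher members was 0 to 2 of 8 for the suppressors and 0 to 5 of 9 for the promoters. Both lists were at 0 without normalization, when 2 members of each were at least 2-fold lower. With cyclic loess it was 1 of 9 for the promoters, and 5 of 9 when arrays were scaled to their 75th percentile. The count of all higher probes had the same order as the promoters over these settings. Of the 339 detected on either primary array, it was 7 without normalization, 28 after cyclic loess and 190 at the 75th percentile setting. That order did not hold over all settings. With the median of empty spots subtracted, 78 probes and 4 of 9 promoters were higher, and with scaling to the median 124 probes and 3 of 9.

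The markers of cell types that the samples could hold also differed between arrays. Of 10 epithelial microRNAs, 4, 9, 3 and 9 were detected in the order sham primary, sham metastases, irradiated primary and metastases of irradiated mice. Of all 700 microRNA probes, 337, 459, 186 and 339 were detected in the same order, so detection also varied between arrays over all probes. The log2 of the summed level of the 10 epithelial microRNAs was 11.96, 12.80, 12.31 and 13.23. miR-182 and miR-183 were detected on all 4 arrays, at ranks 77 and 84 in the sham and 65 and 78 in the irradiated primary tumour. Of the 5 members of the miR-200 family, miR-200c was detected in the sham and miR-429 in the irradiated primary tumour, and miR-200a, miR-200b and miR-141 in neither. miR-96 was not detected on any array. The 5 smooth muscle and fibroblast microRNAs had log2 sums of 10.91, 13.37, 12.78 and 13.62, and in the irradiated against the sham primary tumour all 4 that were detected on both arrays were at least 2-fold higher, beside 26.6% of all probes detected on both. Without normalization 2 of these 4 were, and 1 had a negative difference, when 7 of the 339 probes detected on either array were 2-fold higher. The 4 skeletal and heart muscle microRNAs had log2 sums of 12.76, 9.26, 13.18 and 14.02, and 3 of 4 were at least 2-fold higher in the irradiated than in the sham primary tumour, without normalization too, beside the same 26.6%. The other member, miR-206, had a difference of -0.98, and -2.59 without normalization. It made up most of the sham primary sum, at 12.68, where miR-1, miR-133a and miR-133b were at 7.07 to 7.13. In the irradiated primary tumour these 3 were higher by 4.82, 3.21 and 2.64. The 5 leukocyte microRNAs had log2 sums of 12.62, 13.05, 10.85 and 12.51. Those of the 2 endothelial microRNAs were 12.18, 14.68, 12.82 and 14.81. Those of the 2 hepatocyte microRNAs were 7.92, 8.54, 7.89 and 10.04, and those of the 3 erythroid microRNAs 11.30, 14.00, 11.11 and 13.96. All of these sums take in members that were not detected. On the irradiated primary array, 2 of 5 leukocyte, 1 of 2 endothelial, 0 of 2 hepatocyte and 2 of 3 erythroid microRNAs were detected. After quantile normalization, none of these 7 lists had its highest sum in the irradiated primary tumour, where miR-31 was highest. Of the 180 probes detected on all 4 arrays, 69 were highest there, and 4 members of these lists were among them. They were miR-214 of the fibroblast list, at 11.93 against 9.65 to 10.55 on the other 3 arrays, the epithelial miR-182 (11.31 against 10.12 to 10.72) and miR-183 (10.68 against 9.52 to 10.47), and the muscle microRNA miR-133a, at 10.35 against 10.29 in the metastases of irradiated mice. The part of cell composition in the level of miR-31 was not tested.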

How the data were processed

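Poly(A)-tailed total RNA (2 µg) was tagged for Cy3 staining and hybridised on microfluidic chips by a service provider, per the labels' protocols. The deposited scanner tables give the mean intensity of each of 3968 spots per array in linear units, per the file headers. The comma between groups of digits was removed. The deposited SD of intensity within a spot was not used further. The authors' value table lists an intensity for each probe with background taken off, judged by comparison with the scanner tables (correlation at least 0.99996 on each array, column medians of 178.9, 212.6, 129.6 and 55.88 units), and was used as an alternative. The scanner software and the choice of background in that table are not given in the sources.

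Spots were corrected by normexp (offset 50, limma 3.58.1, R 4.3.3) and log2-transformed. Each probe was the mean of its 5 spots, and quantile normalization ran over the 700 probes of the 4 arrays. A probe was detected when at least 3 of 5 spots exceeded the 95th percentile of the 180 empty spots. The ± of a difference is the SD over 5 pairs of spots at the same position before quantile normalization. The limma fit was tested on simulated data with equal noise in all probes and no difference in radiation response between sites. That test does not cover probes whose radiation differences disagree between sites, as those of miR-31 did. The alternatives were other background corrections, scalings and spot summaries, and quantile normalization over the compared arrays only, which was added after seeing the data. Named were miR-31, miR-31*, the 6 probes nearest in pattern, the neighbours in brightness, the nearest target sequence and members of the listed microRNAs. The members and lists were chosen with earlier results of these data known. A list's largest values were picked after they were seen.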

Additional observations from a re-analysis of the deposited data

How the results depend on the processing

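Most of the alternatives kept quantile normalization, and all rest on the same arrays, so their counts are not independent checks. The higher level of miR-31 in the irradiated than in the sham primary tumour kept its direction under all 11 alternatives and was at least 2-fold under 10 of them. It moved from 1.68 by more than the scatter of the spots to 1.62 without background correction, 1.56 with cyclic loess, 2.26 with scaling to the 75th percentile, 1.91 with scaling to the median, 2.05 with quantile normalization over the 2 compared arrays only, and 0.84 without normalization. The lower level in metastases than in the primary tumour of the irradiated arm stayed at least 2-fold under all 11, and moved to -2.02 with scaling to the 75th percentile, -2.09 with scaling to the median and -1.06 without normalization. The difference between both radiation differences stayed below -1 under all 10 alternatives, and moved to -2.00 with scaling to the 75th percentile and -1.73 with scaling to the median. The 10 Gy difference in metastases moved from 0.14 to -0.53 without normalization, and under the other 10 it lay between 0.13 and 0.26. The difference between sham metastases and sham primary tumour moved to -0.14 with cyclic loess, -0.023 with scaling to the 75th percentile, -0.36 with scaling to the median and 0.31 without normalization. The cause of these shifts was not tested. Both terms of the limma fit kept their sign under all 10 alternatives, with an adjusted p from 0.123 to 0.664 for site and from 0.283 to 0.915 for radiation. Subtracting a row and column trend of the empty spots left the irradiated primary difference at 1.71. A stricter detection threshold, the 99th percentile of the empty spots, left miR-31 detected on all 4 arrays. No paired analysis was possible because each group has 1 array. The mean intensity of miR-31 was 18.8 to 37.8 times the median of the empty spots, and that of miR-31* 1.18 to 2.46 times.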
